A study of Mus musculus with 10 samples.

Results

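The enzymes of cholesterol biosynthesis were followed in microglia sorted from the hippocampi of 3xTg AD mice treated with glatiramer acetate (GA) or with phosphate-buffered saline (PBS). The members were 8 genes, *Hmgcs1*, *Mvd*, *Idi1*, *Fdps*, *Fdft1*, *Sqle*, *Lss* and *Cyp51*, taken by symbol from the 55453 genes of the count table. All 8 passed the filter on low counts, which left 14481 genes for testing. GA is a synthetic peptide drug without a fixed sequence, prescribed in multiple sclerosis. The 5 PBS libraries carried the titles 388_1 to 388_5, and the 5 GA libraries were 394_1, 394_2, 400_1, 400_2 and 400_3. Every mouse was female and, by the labels, older than 15 months, and GA was given at 0.1 mg once a week for about 8 weeks, with an additional injection in the first week by the study's methods. All mice, controls included, carried mutant human transgenes, among them *APP* (Swedish) and *MAPT*, under the Thy1.2 promoter, which is active in neurons and not in microglia, and were retired breeders of a homozygous colony. No library of a non-transgenic mouse was analysed here. The title prefix was never shared between treatments, so that prefix and treatment cannot be told apart. The labels do not state that each library came from its own animal, and *P*-values therefore measure the spread between these samples.

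Cholesterol is assembled from acetyl-CoA along a single chain of enzymes. The early enzymes make mevalonate and convert it into isoprenoid diphosphates, which also feed the prenylation of proteins and the synthesis of dolichol and ubiquinone. The later enzymes join farnesyl units into squalene, close its rings to lanosterol, and trim lanosterol to cholesterol. Most genes of the pathway are targets of the transcription factor SREBP2, the product of *Srebf2*, which is held in the endoplasmic reticulum by SCAP and INSIG proteins while sterols are abundant and travels to the nucleus when they run short. In the adult brain cholesterol is made locally, mainly by glia, and microglia also receive it with the myelin and debris that they engulf.

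Promoter sequences are shown because shared control by SREBP2, which acts together with NF-Y at CCAAT boxes and Sp1 at GC boxes, is the textbook reason to treat these enzymes as a group. RefSeq windows of the 250 bases before the RefSeq gene start (GRCm38.p6) were matched for 5 of the 8 members (*Hmgcs1*, *Mvd*, *Idi1*, *Lss* and *Cyp51*). They were searched on both strands for TCACCCCAC, the core of a sterol regulatory element, for CCAAT, and for GGGCGG. Capitals mark the matches, and a match on the opposite strand reads ATTGG or CCGCCC. The windows of *Hmgcs1* (chr13:119690101-119690350, plus strand) and *Mvd* (chr8:122443423-122443672, minus strand) are printed in the direction of the gene, because they lie wholly outside the gene in GENCODE as well.
Hmgcs1: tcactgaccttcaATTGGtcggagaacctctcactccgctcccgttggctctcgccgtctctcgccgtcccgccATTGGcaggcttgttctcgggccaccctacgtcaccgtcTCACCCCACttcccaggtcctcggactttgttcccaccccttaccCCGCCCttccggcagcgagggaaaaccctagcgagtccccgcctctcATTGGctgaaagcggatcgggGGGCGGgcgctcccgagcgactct
Mvd: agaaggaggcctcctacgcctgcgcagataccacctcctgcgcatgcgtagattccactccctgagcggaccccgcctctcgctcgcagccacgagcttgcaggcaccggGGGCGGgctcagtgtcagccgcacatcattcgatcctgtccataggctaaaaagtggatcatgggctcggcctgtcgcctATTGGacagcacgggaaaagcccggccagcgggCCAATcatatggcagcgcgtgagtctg
All 5 of the 5 windows held CCAAT and GGGCGG. The annotations differ on the start of the other 3 genes, and by the GENCODE positions 105 bases of the *Idi1* window, 49 of the *Cyp51* window and 17 of the *Lss* window lie inside the gene, with all 3 matches of *Idi1* and the CCAAT of *Cyp51* among them. Of 32851 promoter windows of the same length, 33.8% held CCAAT, 32.7% held GGGCGG and 11.0% held both. TCACCCCAC was found in 1 of the 5, that of *Hmgcs1*, where it began 137 bases before the start, and in 0.496% of all windows. These matches describe letters and are not evidence of binding. The absence of a match says only that the letters are not in the window.

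Library totals ran from 32332185 to 38764643 counts. Levels are given as CPM, counts divided by the normalized library size and scaled to a common total. Microglial genes were high in every library, with *P2ry12* at 6890 ± 316 (SD, n = 5) CPM in PBS and 6319 ± 506 in GA. Neuronal markers summed to 0.330 to 2.08 CPM, and 0 of the 7 had reads in every library. Astrocyte markers summed to 248 to 353 CPM, most of it *Slc1a3*, while *Gfap* stood at 2.20 CPM in PBS and 2.41 in GA and *Aqp4* at 0.198 and 0.195. Of the 7 oligodendrocyte markers, 5 had reads in every library, with a sum of 175 to 218 CPM. The 6 neutrophil markers had lower means in GA, with sums of 33.7 to 413 CPM in PBS and 8.52 to 154 in GA, and 5 of them had an unadjusted *P* under 0.05 by edgeR (5.75% of all genes) and 0 passed adjustment. The part of these transcripts in the results on the enzymes was not tested. PBS library 388_4 stood apart, with the highest sum of border-associated macrophage markers (150 CPM, against at most 112 elsewhere), the highest sum of monocyte markers (53.5 CPM, against at most 39.8) and the lowest *Itgam* (88.7 CPM), and results are also given without it. Since these are bulk libraries, a change in RNA per cell and a change in the cells present cannot be told apart.

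None of the 8 enzymes passed the test for a treatment difference. In edgeR's quasi-likelihood F-test 0 of the 8 had an adjusted *P* under 0.05, as did 0% of the 14481 genes tested. Below an unadjusted *P* of 0.05 lay 0 of the 8, against 5.75% of all genes. The mean was higher in GA for 4 members (*Idi1*, *Hmgcs1*, *Cyp51* and *Mvd*) and lower for 4 (*Fdft1*, *Sqle*, *Lss* and *Fdps*), and 50.1% of all genes were higher. The median log2 fold change was 0.01 for the members and 0.00 for all genes. PBS and GA libraries were fully separated for 0 of the 8 members and for 0.891% of all genes. DESeq2 also called 0 of the 8 (0.0106% of its 18894 genes with an adjusted *P*) and placed 1, *Idi1*, below an unadjusted *P* of 0.05, as it did 4.53% of 27495 genes. Without 388_4, 5 members were higher and 3 lower in GA, with a median log2 fold change of 0.05.

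**Figure D1:**
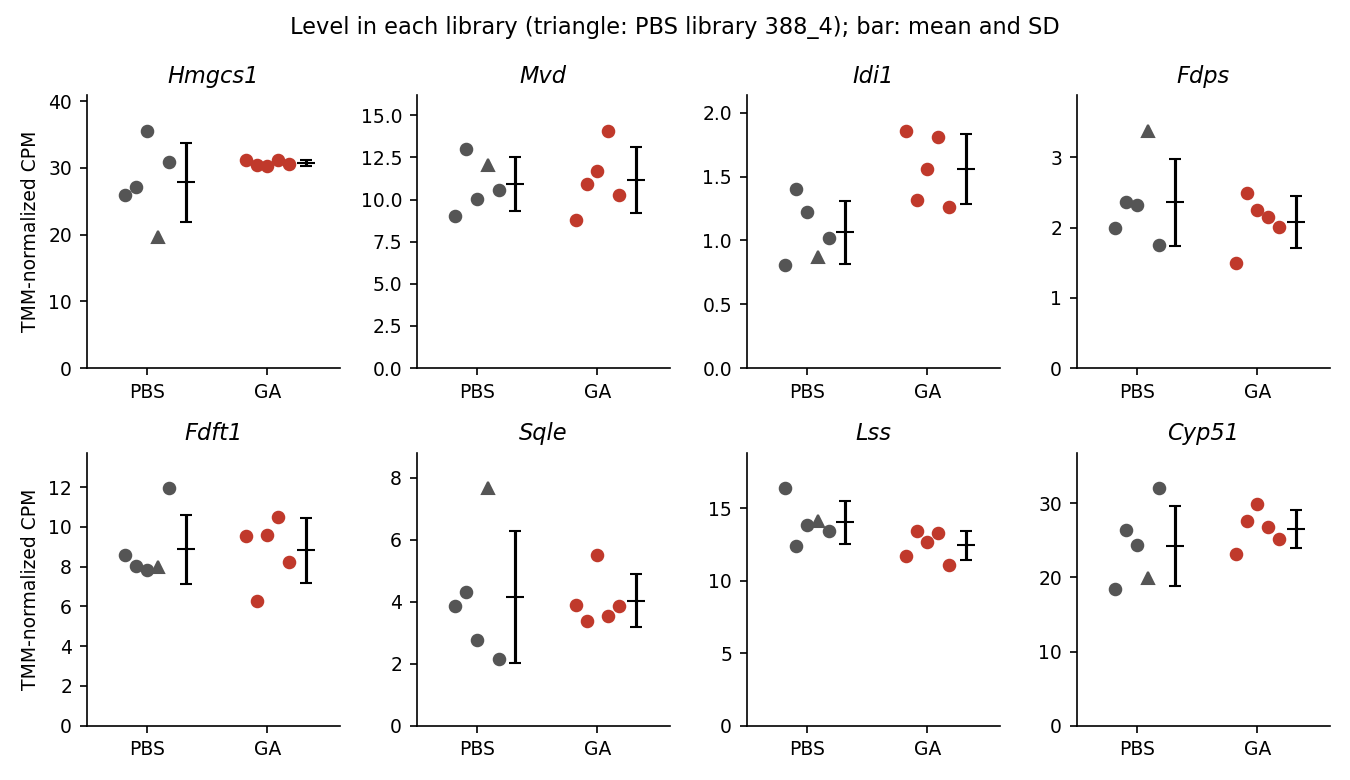
Level of each enzyme in CPM, normalized by TMM (vertical axis, from 0), in the 5 PBS and 5 GA libraries. Each point is a library, the triangle is PBS library 388_4, and the bar gives the mean and SD; the 5 GA libraries overlap the PBS libraries for all 8 enzymes, and the *Hmgcs1* values in GA lie between 30.3 and 31.2 CPM.

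The early arm of the pathway opens with *Hmgcs1* (ENSMUSG00000093930.2, chr13:119690379-119708260, plus strand, GRCm38), whose cytosolic enzyme condenses acetoacetyl-CoA with acetyl-CoA in the step before mevalonate is formed. Its level was 25.9, 27.2, 35.6, 19.6 and 30.9 CPM in PBS libraries 388_1 to 388_5. In GA it was 31.2, 30.5, 30.3, 31.2 and 30.6 CPM, in the order 394_1, 394_2, 400_1, 400_2 and 400_3, which holds for every gene. All 5 GA values fell inside the PBS range. The means were 27.8 ± 5.95 CPM in PBS and 30.8 ± 0.423 in GA (SD, n = 5 each), a log2 fold change of 0.14 (SE 0.13, 95% interval −0.13 to 0.42, edgeR adjusted *P* = 0.928). The exact permutation test of log2 CPM (two-sided, 252 arrangements, smallest possible *P* 0.00794) gave *P* = 0.310, and 0.0317 without PBS library 388_3, the highest of the group. The log2 fold change was 0.04 without 388_4, the lowest, and 0.25 without 388_3. The 5 GA libraries had a coefficient of variation of 1.37% where counting error alone gives 3.00% on average, and 27 of the 14481 genes (0.186%) varied less among them. The same coefficient was 21.4% in PBS.

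*Mvd* (ENSMUSG00000006517.5, chr8:122433601-122443422, minus strand) encodes mevalonate diphosphate decarboxylase, which releases isopentenyl diphosphate, the building block of all isoprenoids. The PBS libraries measured 9.0, 13.0, 10.05, 12.02 and 10.6 CPM and the GA libraries 8.81, 10.9, 11.7, 14.1 and 10.3 CPM. The lowest and the highest value were both from GA, in 394_1 and 400_2, and the groups overlapped. Means were 10.9 ± 1.59 and 11.2 ± 1.94 CPM, and the log2 fold change was 0.03 (SE 0.15, 95% interval −0.29 to 0.35, edgeR adjusted *P* = 0.984). The sign turned without 388_1 (−0.03) and without 400_2 (−0.06), and the estimate was 0.07 without 388_4.

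*Idi1* (ENSMUSG00000058258.14, chr13:8885501-8892451, plus strand) encodes the isomerase that turns isopentenyl into dimethylallyl diphosphate, the primer on which longer isoprenoids are built. It had the lowest counts of the group, 28 to 47 in PBS and 47 to 69 in GA. In CPM, PBS libraries stood at 0.811, 1.40, 1.22, 0.868 and 1.02, and GA libraries at 1.86, 1.32, 1.56, 1.81 and 1.26. The GA libraries 394_1, 400_1 and 400_2 lay above every PBS library, and the other two lay within the PBS range. The mean was 1.07 ± 0.248 CPM in PBS and 1.56 ± 0.273 in GA, 1.46-fold (95% interval 0.957 to 2.24) and the largest difference of the 8 (log2 fold change 0.55, SE 0.29, edgeR adjusted *P* = 0.889). DESeq2 gave the same log2 fold change of 0.55 with a 95% interval of 0.01 to 1.10 and an adjusted *P* of 0.755. The exact permutation test gave *P* = 0.0317, which rose to between 0.0556 and 0.0635 when 388_1, 388_4, 394_1, 400_1 or 400_2 was left out and was 0.00794, the smallest it can give, without 388_2. The unadjusted *P* of edgeR was under 0.05 without 388_2 and when 10 counts were required in every library. The log2 fold change was 0.49 without 388_4. At this depth counting error alone gives a coefficient of variation of 16.6% in PBS and 13.3% in GA, against 23.2% and 17.5% observed.

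*Fdps* (ENSMUSG00000059743.12, chr3:89093588-89101959, minus strand) encodes farnesyl diphosphate synthase, the target of nitrogen-containing bisphosphonates, whose product stands at the branch between sterols and protein prenylation. Its PBS levels were 1.99, 2.36, 2.32, 3.38 and 1.76 CPM and its GA levels 1.498, 2.50, 2.25, 2.15 and 2.01 CPM. Library 388_4 was the highest and 394_1 the lowest, with the other 4 GA libraries inside the PBS range. The means of 2.36 ± 0.620 and 2.08 ± 0.372 CPM gave a log2 fold change of −0.18 (SE 0.25, 95% interval −0.72 to 0.36, edgeR adjusted *P* = 0.953). It was −0.02 without 388_4 and −0.08 without 394_1.

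The sterol arm begins with *Fdft1* (ENSMUSG00000021273.10, chr14:63145150-63179578, minus strand), squalene synthase, which commits farnesyl diphosphate to sterols. Levels were 8.61, 8.01, 7.85, 7.99 and 11.9 CPM in PBS and 9.53, 6.29, 9.59, 10.5 and 8.26 CPM in GA. Library 388_5 exceeded every other library, and 394_2 was the lowest. The means were almost equal, at 8.88 ± 1.73 and 8.84 ± 1.63 CPM (log2 fold change −0.01, SE 0.17, 95% interval −0.37 to 0.36, edgeR adjusted *P* = 0.997). The estimate was above 0 without 388_5 (0.13), without 394_2 (0.09) or without 400_3 (0.02), and −0.04 without 388_4.

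*Sqle* (ENSMUSG00000022351.14, chr15:59315077-59331192, plus strand) encodes squalene epoxidase, an oxygen-dependent and flux-controlling step of the sterol arm. It was the most variable member, at 3.85, 4.30, 2.78, 7.65 and 2.15 CPM in PBS and 3.90, 3.37, 5.52, 3.54 and 3.86 CPM in GA. Both the highest level (388_4) and the lowest (388_5) came from PBS, and all 5 GA libraries lay between them. Means were 4.15 ± 2.14 and 4.04 ± 0.857 CPM, with a log2 fold change of −0.04 (SE 0.30, 95% interval −0.68 to 0.60, edgeR adjusted *P* = 0.992). The coefficient of variation of 51.5% in PBS was far above the 8.42% of counting error. The exact permutation test, which compares means of log2 CPM, gave a difference of 0.07 with the opposite sign (*P* = 0.817). Leaving out 388_4 moved the estimate to 0.30, and leaving out 394_2 or 400_2 moved it to 0.02 and 0.01.

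*Lss* (ENSMUSG00000033105.12, chr10:76531588-76557138, plus strand) encodes lanosterol synthase, which folds epoxidized squalene into the first sterol. PBS libraries held 16.4, 12.4, 13.8, 14.1 and 13.4 CPM and GA libraries 11.7, 13.4, 12.7, 13.3 and 11.1 CPM. The GA libraries 394_1 and 400_3 lay below every PBS library, and 388_1 lay above all others. The mean went from 14.0 ± 1.46 CPM in PBS to 12.4 ± 1.02 in GA, 0.887-fold (95% interval 0.752 to 1.05, log2 fold change −0.17, SE 0.11, edgeR adjusted *P* = 0.896). The exact permutation test gave *P* = 0.0794, and 0.0397 without 388_2. The log2 fold change was −0.11 without 388_1 and −0.17 without 388_4.

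*Cyp51* (ENSMUSG00000001467.5, chr5:4081145-4104746, minus strand) encodes the cytochrome P450 that demethylates lanosterol, the enzyme whose fungal counterpart is blocked by azole drugs. Its level was 18.4, 26.4, 24.3, 19.95 and 31.997 CPM in PBS and 23.2, 27.6, 29.9, 26.8 and 25.2 CPM in GA. All 5 GA values lay inside the PBS range, whose ends were 388_1 and 388_5. The means of 24.2 ± 5.42 and 26.5 ± 2.51 CPM gave a log2 fold change of 0.13 (SE 0.14, 95% interval −0.16 to 0.43, edgeR adjusted *P* = 0.943), and the estimate was 0.07 without 388_4, 0.05 without 388_1 and 0.26 without 388_5. For *Cyp51*, *Fdps*, *Mvd* and *Fdft1* the exact permutation *P* was 0.341, 0.452, 0.865 and 0.968.

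**Figure D2:**
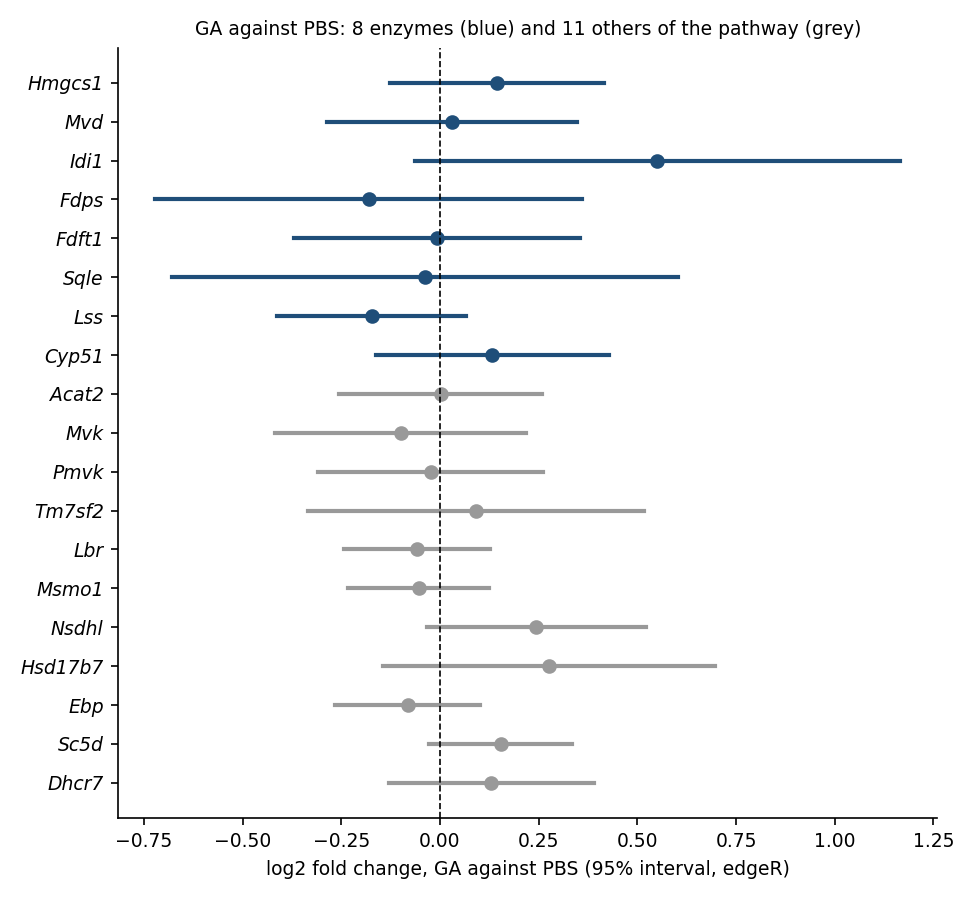
Log2 fold change of GA against PBS (horizontal axis) with its 95% interval from edgeR for the 8 enzymes (blue) and 11 of the 12 other tested enzymes of the pathway (grey; the remaining 1 is not reported here). Every interval includes 0; *Idi1* has the highest estimate, 0.55, and an interval from −0.06 to 1.17.

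The remaining steps of the pathway were covered by a list of 13 further enzymes. Of the 12 that could be tested, 7 were higher and 5 lower in GA, 0 had an unadjusted *P* under 0.05 by edgeR, and the median log2 fold change was 0.04 (range −0.10 to 0.28). *Msmo1*, a sterol methyl oxidase, stood at 49.9 ± 3.29 CPM in PBS and 48.0 ± 4.67 in GA (log2 fold change −0.05, SE 0.08, and −0.01 without 394_2 to −0.10 without 400_1). The smallest *P*-values of the list belonged to *Nsdhl*, a sterol dehydrogenase acting after *Cyp51* (12.9 ± 2.14 and 15.3 ± 1.70 CPM, log2 fold change 0.24, SE 0.13, edgeR adjusted *P* = 0.894), and *Sc5d*, a sterol desaturase (31.4 ± 2.62 and 35.0 ± 2.44 CPM, 0.15, SE 0.08, edgeR adjusted *P* = 0.895). The log2 fold change ran from 0.20 without 388_3 to 0.35 without 388_1 for *Nsdhl*. It ran from 0.11 without 394_1 to 0.21 without 388_5 for *Sc5d*. The unadjusted *P* of edgeR was under 0.05 for *Nsdhl* without 388_1 or 394_2, and for *Sc5d* without 388_5.

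Among the 7 isoprenoid branch enzymes that use the same intermediates, 3 were higher and 4 lower, with 0 below an unadjusted *P* of 0.05 and the smallest for *Pggt1b*, a geranylgeranyl transferase subunit (47.9 ± 5.47 and 53.4 ± 3.02 CPM, log2 fold change 0.16, SE 0.09, and 0.10 without 388_3). Without 388_2 the log2 fold change of *Pggt1b* was 0.20, and its unadjusted *P* by edgeR was under 0.05. The 14 regulators and uptake genes of the same sterol circuit, of which 13 were tested, split into 6 higher and 7 lower, with 0 called. *Srebf2* itself stood at 43.4 ± 6.01 CPM in PBS and 46.7 ± 6.22 in GA (log2 fold change 0.11, SE 0.11, and 0.03 without 400_2). *Insig1*, an SREBP target that restrains the factor, stood at 7.16 ± 1.19 and 8.28 ± 1.04 CPM (0.21, SE 0.15, and 0.13 without 388_4). *Mbtps2*, a protease that releases SREBP from the membrane, was the 1 gene of the 13 below an unadjusted *P* of 0.05, against 5.75% of all genes (16.5 ± 1.55 and 14.1 ± 1.05 CPM, log2 fold change −0.23, SE 0.10, edgeR adjusted *P* = 0.859), and *Mylip*, a ubiquitin ligase, came next (172 ± 48.0 and 209 ± 19.7 CPM, 0.27, SE 0.17, adjusted *P* = 0.895, log2 fold change 0.12 without 388_4). The unadjusted *P* of *Mbtps2* was above 0.05 without 388_1, 388_2, 394_1, 400_1 or 400_3.

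Of 9 genes of liver X receptor signalling, export and storage, 6 were higher and 3 lower, with 0 below an unadjusted *P* of 0.05. The smallest *P*-values were those of *Ch25h*, cholesterol hydroxylase (29.2 ± 8.98 and 37.4 ± 6.83 CPM, log2 fold change 0.36, SE 0.21, and 0.18 without 388_1), and *Apoe*, the main lipoprotein component of the brain (5736 ± 866 and 6384 ± 1074 CPM, 0.15, SE 0.12, and 0.05 without 400_2). Fatty acid synthesis shares acetyl-CoA and SREBP control with the sterol pathway. In its list, 5 of the 9 tested genes were higher and 4 lower in GA, with log2 fold changes from −1.06 to 1.11. An unadjusted *P* under 0.05 was found for 2 of the 9, both higher in GA (5.75% of all genes), and 0 were called. *Fasn*, fatty acid synthase, was 26.6, 23.9, 15.7, 15.2 and 25.6 CPM in PBS and 27.7, 28.1, 30.7, 39.4 and 32.2 CPM in GA. Every GA library thus exceeded every PBS library, a separation that 0.891% of all genes showed in either direction (log2 fold change 0.56, SE 0.16, edgeR adjusted *P* = 0.847). *Acss2*, which makes acetyl-CoA from acetate, rested on 5 to 98 counts (0.738 ± 0.529 and 1.603 ± 0.555 CPM, log2 fold change 1.11, SE 0.48, edgeR adjusted *P* = 0.854). Its unadjusted *P* was above 0.05 without 388_2, 388_3, 388_4, 394_2, 400_1 or 400_3, whereas that of *Fasn* stayed under 0.05 with any 1 library omitted. Without 388_4 the log2 fold change was 0.46 for *Fasn* and 0.85 for *Acss2*.

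Levels of different enzymes were compared after division by merged exon length, with the 10 libraries together. *Hmgcs1* was highest, at 6.38 ± 0.928 (SD, n = 10) CPM per kb, followed by *Mvd* (5.94 ± 0.902), *Cyp51* (5.75 ± 0.944), *Fdft1* (2.10 ± 0.376), *Lss* (1.23 ± 0.134), *Sqle* (0.738 ± 0.277), *Fdps* (0.528 ± 0.120) and *Idi1* (0.375 ± 0.102). By this measure the 3 highest enzymes could not be ordered, since *Hmgcs1* exceeded *Mvd* in 7 of 10 libraries and *Mvd* exceeded *Cyp51* in 4 of 10. The level of *Cyp51* was 2.74-fold that of *Fdft1*, and their ranges did not overlap. *Fdft1* exceeded *Lss* in 10 of 10 libraries although the ranges overlapped, *Lss* exceeded *Sqle* in 9, and *Sqle* exceeded *Fdps*, and *Fdps* exceeded *Idi1*, in 8. The median of all genes tested was 4.30 CPM per kb. *Hmgcs1*, *Mvd* and *Cyp51* were above it and exceeded 58.9%, 57.3% and 56.5% of these genes, whereas *Idi1* exceeded 13.5%. Among the 19 enzymes of the pathway plotted by length, the highest level per kb was that of *Ebp*, a sterol isomerase (25.4 ± 2.38), and the lowest that of *Idi1*. These distances depend on the length used. With coding length, *Mvd* and *Cyp51* exchanged places, *Hmgcs1* (18.8 CPM per kb) and *Cyp51* (16.8) lay well above *Mvd* (9.18), and *Mvd* was only 1.29-fold *Fdft1* (7.10). The same exchange was seen with the longest transcript.

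**Figure D3:**
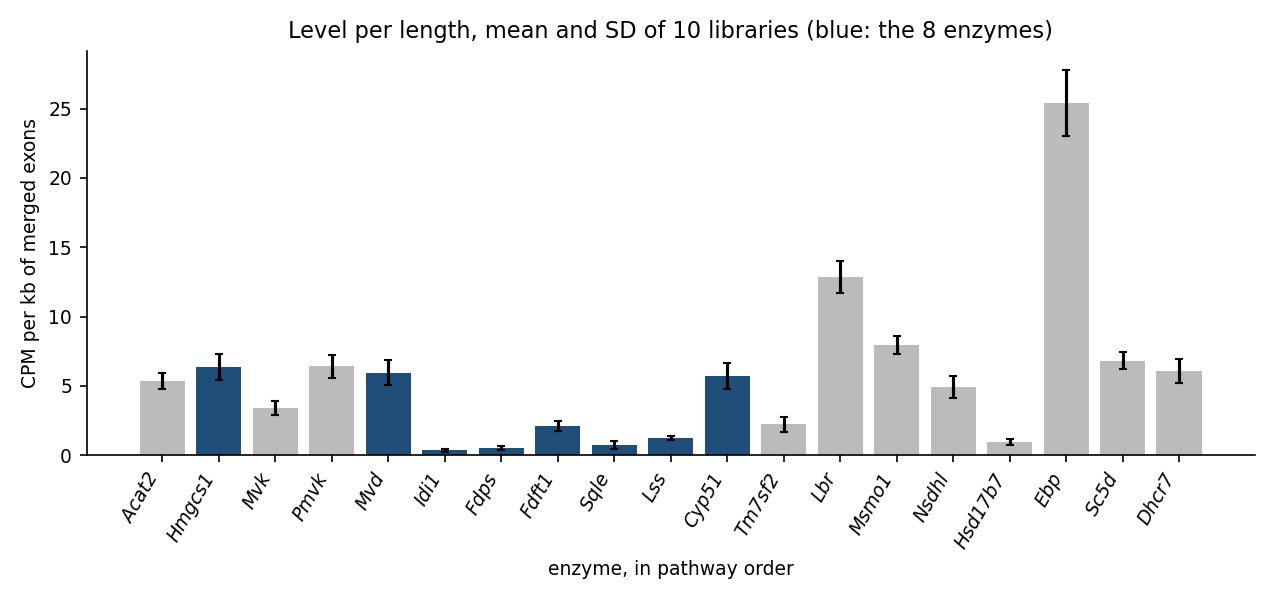
Level per kilobase of merged exons (vertical axis, CPM per kb, from 0) of 19 enzymes in pathway order, as mean and SD of 10 libraries, with the 8 enzymes described here in blue. The consecutive steps from *Idi1* to *Lss* lie between 0.375 and 2.10 CPM per kb, below their neighbours *Mvd* (5.94) and *Cyp51* (5.75).

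The 8 enzymes shared no common course over the libraries that passed a test. Of the 28 pairs, 13 had a positive and 15 a negative Pearson correlation of log2 CPM over the 10 libraries, with a median *r* of −0.04. No pair passed adjustment over the 28 pairs (smallest adjusted permutation *P* = 0.357 for *r* and 0.337 for Spearman's rho), and 2 had an unadjusted permutation *P* under 0.05 by *r* and 2 by rho, which made 3 pairs, all negative. The strongest by *r* lay between *Hmgcs1* and *Sqle* (*r* = −0.75, permutation *P* = 0.0171, rho = −0.64, permutation *P* = 0.0542). It was −0.47 without 388_1 and 388_4, the libraries farthest from the median of *Hmgcs1*, −0.42 without 388_4 alone, and −0.85 for deviations from the group means. The pair under 0.05 by both measures was *Idi1* and *Lss* (*r* = −0.67, permutation *P* = 0.0328, rho = −0.72, permutation *P* = 0.0240), and its *r* was −0.27 without the same libraries. For deviations from the group means the *r* of *Idi1* and *Lss* was −0.44, and it was −0.84 within PBS and 0.18 within GA. *Fdps* and *Fdft1* were under 0.05 by rho (rho = −0.72, permutation *P* = 0.0231, *r* = −0.55, permutation *P* = 0.0969), and their *r* was −0.76 without 388_4 and 394_1. The highest positive *r* joined *Fdps* and *Sqle* (0.60, permutation *P* = 0.0658, rho = 0.30, permutation *P* = 0.408), and it was 0.44 without 388_4 and 394_1 and 0.21 without 388_4 alone. Set against the mean z-score of the other 7 members, *Mvd* had an *r* of 0.64, above 98.5% of the genes tested, and *Cyp51* 0.27. *Lss* had −0.47, and the other 5 members lay between −0.25 and 0.15.

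**Figure D4:**
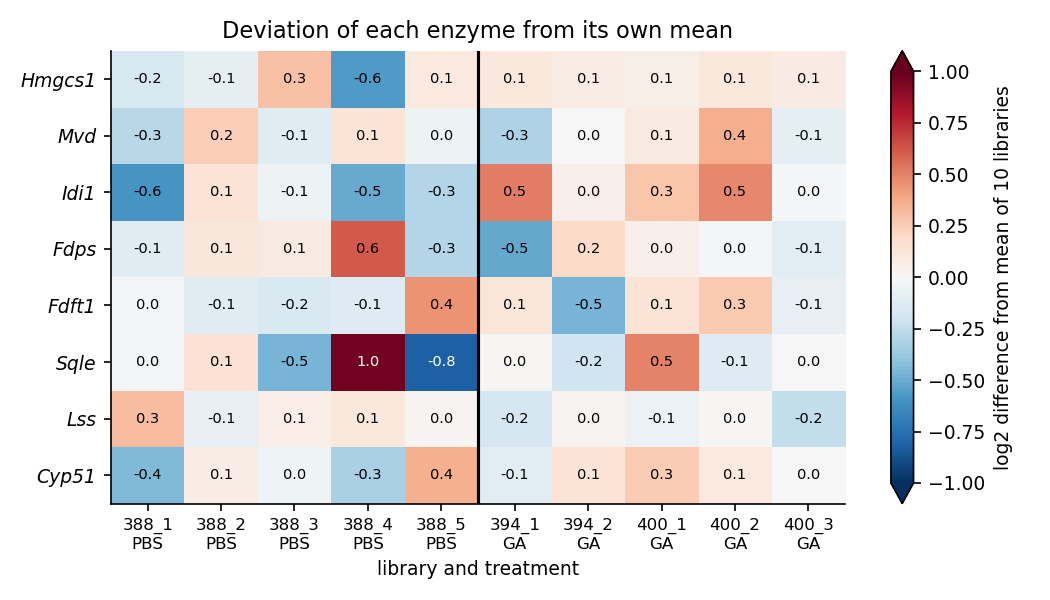
Difference of each enzyme's log2 CPM from its own mean over 10 libraries (colour and printed value), with enzymes in rows in pathway order and libraries in columns, PBS left and GA right of the line. In 388_4 *Fdps* and *Sqle* are the highest of all libraries while *Hmgcs1* is the lowest, and no library is high or low for every enzyme.

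Single libraries were high for some steps and low for others. Library 388_4 was highest for *Fdps* and *Sqle* and lowest for *Hmgcs1*, 388_1 was highest for *Lss* and lowest for *Idi1* and *Cyp51*, and 388_5 was highest for *Fdft1* and *Cyp51* and lowest for *Sqle*. In GA, 394_1 was highest for *Idi1* and lowest for *Mvd* and *Fdps*. Library 400_1 had 7 of 8 members above their mean, 400_2 had 6, and 388_1 had 1. The genes whose log2 CPM most resembled the mean z-score of the 8 members over the 10 libraries included *Clcn7* (*r* = 0.91), *Rprd1b*, *Acot6*, *Itgax*, *Tmem178*, *Atxn1l*, *Cav2*, *Akap5* and *Yipf7* (0.83), which is a description of the best of 14473 genes. The spread of log2 CPM was lower among GA than among PBS libraries for 6 of the 8 members, and for 69.2% of all genes. Without 388_4 that held for 5 of 8 and for 59.7%. Between the GA libraries of prefix 394 and those of prefix 400, 0 members had an unadjusted *P* under 0.05 by edgeR, against 10.1% of the genes tested. In that comparison 2 of 15076 genes passed adjustment.

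*Fdft1* shares 774 exon bases with *Ctsb*, the gene of the lysosomal protease cathepsin B on the opposite strand, which had 175272 to 249650 counts per library. The library kit does not mark strand, so reads from the shared bases cannot be assigned to either gene by strand. *Fdft1* and *Ctsb* were positively correlated over the 10 libraries (*r* = 0.73, permutation *P* = 0.0167, rho = 0.75, permutation *P* = 0.0170, adjusted 0.0335 and 0.0341 over 2 overlapping pairs), a relation looked for after the data had been seen. It was 0.80 without 388_1 and 388_5, 0.57 to 0.88 over the fits that omit 1 library, and 0.74 within PBS and 0.91 within GA. By *r* with *Ctsb*, *Fdft1* ranked above 97.8% of the genes tested. The part of shared reads in the level of *Fdft1* was not tested. *Cyp51* shares 166 bases with *Akap9* on the opposite strand (*r* = −0.62, permutation *P* = 0.0571, rho = −0.60, permutation *P* = 0.0734, *r* = −0.31 without 388_4 and 400_1). On the same strand, *Fdps* shares 1124 of its 4208 merged exon bases with *Gm43738*, which had 0 counts in every library. On the opposite strand, *Hmgcs1* shares 557 bases with *Gm48342*, *Lss* 381 with *4930483K19Rik* and *Idi1* 323 with *Gm48574*. The genes that overlap or resemble *Hmgcs1*, *Idi1*, *Fdps* and *Lss* had 0 to 22 counts per library. Of the 100-base windows on the transcripts, 21.9% of *Idi1*, 21.4% of *Fdps*, 18.3% of *Fdft1* and 8.22% of *Hmgcs1* occurred in other genes as well. How far such windows alter the counts of these enzymes was not tested. *Mvd* and *Sqle* shared 0 windows.

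**Figure D5:**
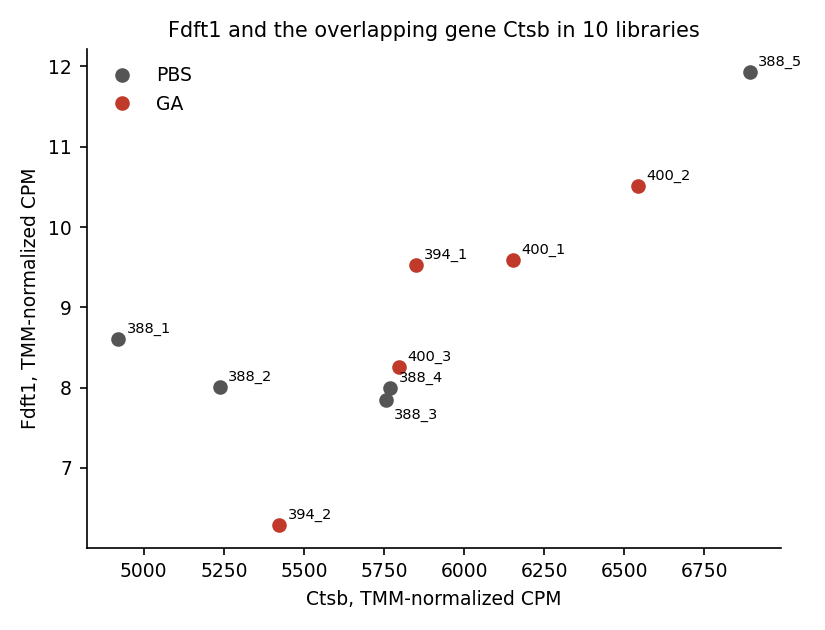
Level of *Fdft1* (vertical axis, CPM) against the overlapping gene *Ctsb* (horizontal axis, CPM; neither axis starts at 0) in 5 PBS and 5 GA libraries, each point a library. Library 388_5 is highest for both genes, and *r* over the 10 libraries is 0.73.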

How the data were processed

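RNA of sorted hippocampal microglia (CD45int CD11b+) was amplified with the SMARTer kit and sequenced as single-end reads. Per the labels' processing notes, bcl2fastq 2.19.0, fastp 0.20.0, STAR 2.7.0f and featureCounts (Subread 1.6.4) were used with GRCm38.p6. The annotation release and strand setting were not given in the sources used here. The authors deposited raw counts per gene, without normalization, and 0 columns lacked a sample. Standard errors, intervals and P-values of the fit cover the spread between libraries, whereas the counting errors cover counting alone, and amplified reads carry no molecular identifiers. No 2 libraries were copies (chi-square per degree of freedom 13.0 to 50.9 over 45 pairs).

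Counts were filtered with filterByExpr (minimum count 10), scaled by TMM and tested, GA against PBS without covariates, by edgeR 4.0.16 (quasi-likelihood F-test, Benjamini-Hochberg adjustment over all genes, threshold 0.05) in R 4.3.3. Fold changes, standard errors and 95% intervals come from this fit. Exact permutation tests and correlations (100000 resamples) used log2(CPM + 0.1). In data simulated for this comparison, 170 of 200 genes changed by a log2 fold of 1 were recovered among 14190 genes, with 12 false calls. The 200 genes were drawn from those with a mean above 1 CPM. Smaller changes were not simulated, so that the recovery does not apply to them. Lengths and positions came from GENCODE M21, and promoters from RefSeq by symbol. The members and gene lists were chosen with earlier results of these data known. The genes named were all 8 members, preset genes of each further list, those with the smallest *P* in it, and the 10 genes most like the members; some genes under this rule are not reported here, although counts over the lists include them. Alternatives were DESeq2 1.42.0, limma-voom 3.58.1, a robust fit, other scalings, filters and pseudocounts, each library left out, each GA prefix alone and a replicate block.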

Additional observations from a re-analysis of the deposited data

Results flagged for a closer look

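In the PBS group, *Fdft1* reached 11.9 CPM in library 388_5, and the gap to the next library took 0.814 of the group's range. In the GA group, *Sqle* reached 5.52 CPM in library 400_1, with a gap of 0.754 of the range. These values were singled out because 1 library lay far from the other 4. Over the 16 groups examined (8 enzymes in 2 treatments), chance singles out about 1 in 20.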

How the results depend on the processing

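The number of genes called between GA and PBS was 0 by edgeR with other scalings, filters, a robust fit, either GA prefix alone or limma-voom, 2 by DESeq2, and 0 to 1 with each library left out (1 without 394_1). No member was called in any of these fits, the smallest adjusted *P* of a member being 0.642, and 3 to 6 of the 8 had a higher mean in GA. *Idi1*, *Hmgcs1* and *Cyp51* stayed higher and *Lss* and *Fdps* lower in every fit, with log2 fold changes of 0.44 to 0.67 for *Idi1*. The estimates of *Mvd*, *Fdft1* and *Sqle* changed sign in some. *Mvd* was −0.14 with prefix 394 alone and −0.063 to 0.10 with each library left out. *Fdft1* was 0.00197 without a filter, 0.10 with prefix 400 alone, and −0.072 to 0.13 with each library left out. *Sqle* was 0.081 by limma-voom, 0.060 with prefix 400 alone, and −0.20 to 0.30 with each library left out. The cause was not tested. With each library left out, the exact permutation *P* ran from 0.452 to 1 for *Mvd*, 0.468 to 0.992 for *Fdft1* and 0.254 to 0.937 for *Sqle*, with differences of either sign. By level per length, 6 members kept their rank with the longest transcript, with coding length and in GA libraries alone. Correlations of deviations ran from −0.116 to 0.0489 for the 5 pairs with equal title numbers and from −0.110 to 0.0712 for the 20 with unequal numbers. These values cannot decide whether title numbers pair the samples. Library 388_1 shared its number with both 394_1 and 400_1, and 388_4 and 388_5 shared theirs with no GA library. With the number as a replicate block, 0 genes were called, and *Fdft1* (0.10) and *Sqle* (0.11) changed sign. Depth limits *Idi1*, *Fdps* and *Sqle* most, which had as few as 28, 50 and 76 counts.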
